A study of Mus musculus with 9 samples.

Results

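The oxytocin receptor gene Oxtr, Fmr1, Lhfpl2, Olfm1, Alcam, Lrrc8d and Degs1 are 7 of the 3958 genes in a table of raw counts from mouse adipose tissue. They were chosen because their levels, in counts scaled to library size (CPM), in the 3 MPX libraries all lay above those in the 3 electroacupuncture (EA) libraries. That condition alone was met by 753 of the 3958 genes (19.0%; the opposite, all EA above all MPX, by 21.5%), so the 7 genes are a selection from a much larger set. By the ratio of lowest MPX to highest EA value they ranked 2 to 87 among the 753. They are therefore not typical of that set. The difference between EA and MPX is therefore given below as a description, with no test.

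The study sequenced RNA of adipose tissue from male C57BL/6J mice, a common inbred strain, and every library is labelled day 21. The EA group holds 3 libraries (numbers 5, 7 and 8) whose treatment is labelled EA, electroacupuncture, the electrical stimulation of inserted needles. The MPX group (numbers 2, 5 and 7) and the CPX group (numbers 4, 6 and 8) hold 3 libraries each and carry no treatment label. The series design names a normal diet, a high-fat diet, and a high-fat diet with electroacupuncture, but no label says which of MPX and CPX had which diet, so by that design EA differs from one of them in diet as well, and which one cannot be told here. The fat depot, the acupuncture points and whether each library came from its own mouse are not given in the labels, so a p-value covers only the variation among these libraries, which may be technical. The table lists the most abundant genes only, with 12115183 to 14208853 listed counts per library, and CPM values are relative to those sums after TMM scaling.

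Of the 10 adipocyte markers looked up all 10 were listed, and of the 12 retina markers none, although retinas are mentioned in the labels' extraction protocol. The CPX libraries stood apart from each other: the summed adipocyte markers were 7432 CPM in CPX 6 and 87910 CPM in CPX 4. In EA they ran between 29400 and 43230 CPM, all below the MPX range of 43980 to 47920 CPM. Of the 10, 8 had negative and 2 positive log2 differences of EA minus MPX, Cfd (1.03) and Pnpla2 (0.16). The 6 summed endothelial markers also lay lower in EA (1051 to 1426 CPM) than in MPX (1431 to 2167 CPM). Both gaps were narrow, between EA 5 and MPX 2 for adipocyte and between EA 7 and MPX 7 for endothelial markers. The TMM factors of those libraries (1.04 and 1.013, 1.091 and 0.9949) differed by more, so the gaps depended on the scaling. The 7 listed B cell markers were higher in EA than in MPX, with 551 to 1687 CPM in EA, 4.32 to 18.3 CPM in MPX and 10.4 to 3177 CPM in CPX. The 8 macrophage markers overlapped, at 2545 to 6413 CPM in EA and 1253 to 3780 CPM in MPX. The part of these cell types in the values below was not tested, and in bulk tissue fewer cells of a type and less RNA per cell cannot be told apart.

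The 7 genes belong to no single pathway. Oxytocin is a peptide hormone best known from birth and lactation, and its receptor couples to Gq proteins, phospholipase C and calcium release, also in fat cells. Ceramides are built from serine and palmitate in the endoplasmic reticulum, and dihydroceramide desaturase, encoded by Degs1, performs the last step of that synthesis; in mice its loss improves insulin sensitivity. Volume-regulated anion channels open when cells swell, and enlarged adipocytes are one cell type in which they have been studied.

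Among the receptors, channels and adhesion molecules of the cell surface, Oxtr had the widest spread. It was at 4.72, 17.6 and 1.23 CPM in EA 5, 7 and 8, and at 28.7, 425 and 201 CPM in MPX 2, 5 and 7. In CPX 4, 6 and 8 it was at 16.4, 2.30 and 22.1 CPM. MPX 5 and MPX 7 stood far above all other libraries, while MPX 2 lay just above CPX 8. The EA values rest on few reads, 64, 263 and 17 counts, against 405, 5509 and 2844 counts in MPX. The means were 7.85 ± 8.62 CPM in the EA libraries, against 218.5 ± 198.9 CPM in MPX (SD, n = 3 each), with a fitted log2 difference of -4.79 (SE 1.35). Without EA 7 the difference was -6.20 and without MPX 5 it was -3.91, so its size depended on single libraries.

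Lrrc8d encodes a subunit of the volume-regulated anion channel that favours the passage of organic osmolytes such as taurine. It was at 56.0, 64.9 and 49.9 CPM in EA 5, 7 and 8, and at 89.5, 113 and 109 CPM in MPX 2, 5 and 7. Its levels in CPX 4, 6 and 8 were 65.8, 59.5 and 82.8 CPM, below every MPX library but overlapping EA. The EA minus MPX difference was the smallest of the 7, -0.87 (SE 0.20) on the log2 scale, and the MPX libraries were close to each other (104 ± 12.7 CPM).

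Alcam encodes an immunoglobulin-superfamily adhesion molecule, CD166, that binds CD6 on T cells. It was at 44.1, 39.0 and 38.7 CPM in EA 5, 7 and 8, and at 84.5, 151 and 132 CPM in MPX 2, 5 and 7. In CPX 4, 6 and 8 it was at 48.2, 52.6 and 88.6 CPM. The EA libraries lay close together and below all other libraries, and CPX 8 lay just above MPX 2. The log2 difference of EA minus MPX was -1.59 (SE 0.30).

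Lhfpl2 encodes a protein of the LHFPL family, which spans the membrane 4 times. It was at 78.6, 107.5 and 78.6 CPM in EA 5, 7 and 8, and at 215, 529.6 and 369.6 CPM in MPX 2, 5 and 7. The CPX libraries 4, 6 and 8 had 91.3, 38.5 and 141 CPM, so CPX 6 was the lowest of all 9 libraries. The gap between groups was the widest among the 7 genes: the lowest MPX value was 1.998 times the highest EA value and 1.53 times the highest CPX value. The log2 difference of EA minus MPX was -2.07 (SE 0.50).

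Olfm1 encodes olfactomedin 1, a secreted glycoprotein studied mostly in neurons. It was at 49.0, 57.3 and 34.9 CPM in EA 5, 7 and 8, and at 81.7, 274 and 206 CPM in MPX 2, 5 and 7. Its levels in CPX 4, 6 and 8 were 46.4, 61.9 and 95.3 CPM, and CPX 8 exceeded MPX 2. The log2 difference of EA minus MPX was -1.99 (SE 0.47).

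Of the intracellular proteins, Fmr1 encodes FMRP, an RNA-binding protein that regulates translation and whose loss causes fragile X syndrome in humans. It was at 99.1, 156 and 81.4 CPM in EA 5, 7 and 8, and at 235, 1265 and 744 CPM in MPX 2, 5 and 7. In CPX 4, 6 and 8 it was at 172, 119 and 351 CPM. As for Olfm1, MPX 2 was close to the other groups and CPX 8 lay above it. The log2 difference of EA minus MPX was -2.74 (SE 0.67), the largest after Oxtr.

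Degs1 was at 138, 122 and 122 CPM in EA 5, 7 and 8, and at 179, 299 and 252 CPM in MPX 2, 5 and 7. The CPX libraries 4, 6 and 8 had 170.3, 132 and 153.5 CPM, again under all MPX libraries. The log2 difference of EA minus MPX was -0.94 (SE 0.23). Of the 7, Degs1 was nearest to the limit of the choice, with its lowest MPX value 1.30 times its highest EA value. It still ranked 87 among the 753 genes by that ratio. The nearest listed gene on the other side of the limit was Smim14, at 143 CPM in both its lowest MPX and its highest EA library.

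The choice fixed the direction of EA minus MPX, so calls of the 7 genes in it are no result. DESeq2 called 7 of 7, where it called 0.707% of all genes as lower and 0.531% as higher in EA. With only the EA and MPX libraries in the edgeR fit, 3 of 7 passed, where 0.556% of all genes passed as lower and 1.57% as higher in EA. With all 9 libraries edgeR called 0 of 7 and 0 of all genes.

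**Figure D1:**
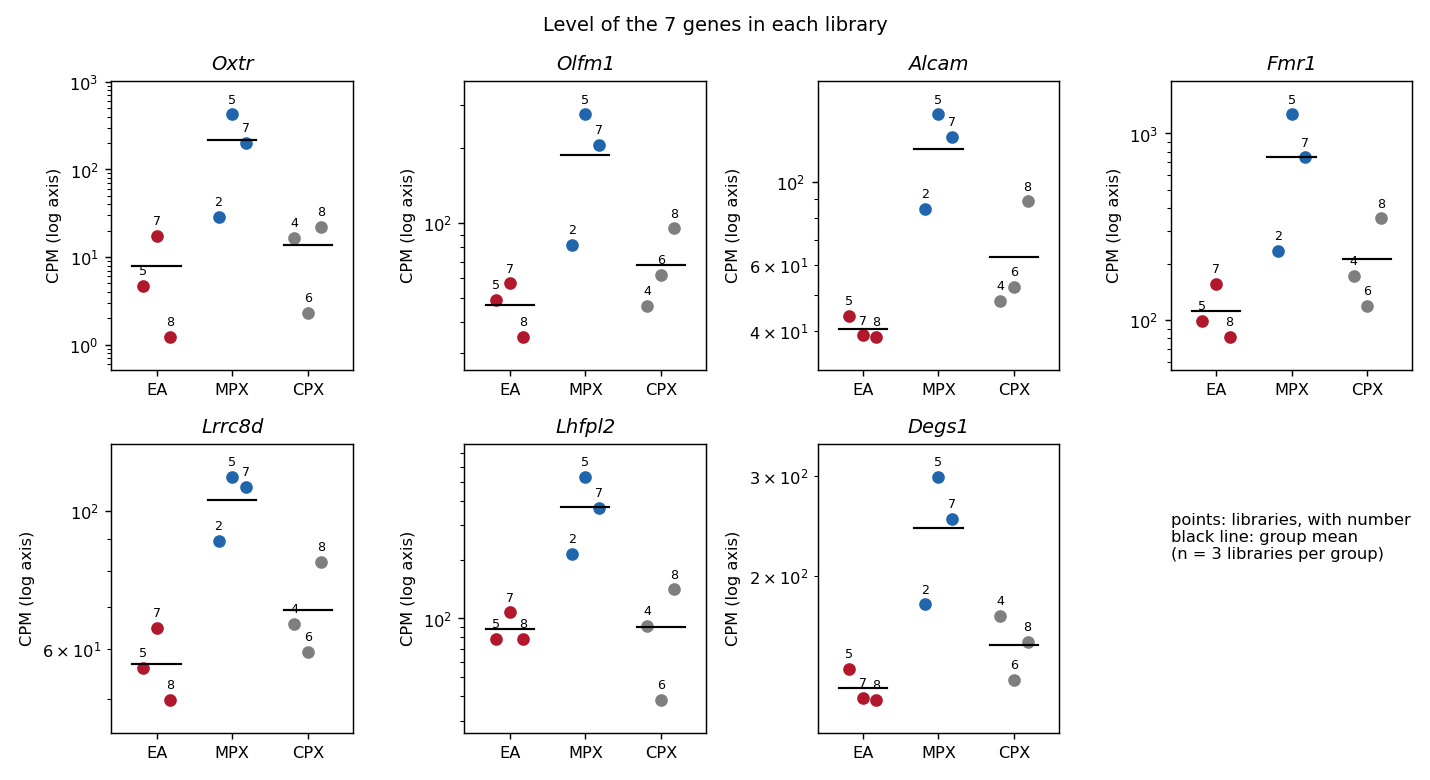
CPM of each gene (vertical log axis) in the EA, MPX and CPX libraries; points are libraries with their number and black lines are means of n = 3. All MPX points lie above all EA points, and MPX 2 is the lowest MPX point in each panel.

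Scaled to gene length, so that genes can be compared with each other, the order of levels differed between the groups. In EA, Degs1 had the highest level (49.1 ± 3.52 CPM per kb), followed by Olfm1 (13.3 ± 3.19), Fmr1 (12.5 ± 4.37), Lhfpl2 (10.49 ± 1.98), Alcam (5.70 ± 0.42), Lrrc8d (4.53 ± 0.60) and Oxtr (1.64 ± 1.80), all as mean and SD of CPM per kb over 3 libraries. Olfm1, Fmr1 and Lhfpl2 overlapped there, between 9.08 and 17.4 CPM per kb, while Oxtr, at most 3.67, stayed below Lrrc8d, at least 3.97. In MPX, Degs1 (93.9 ± 23.4 CPM per kb) and Fmr1 (83.4 ± 57.4) overlapped, and Oxtr (45.6 ± 41.5) overlapped Lhfpl2 (44.1 ± 18.7) and Olfm1 (52.8 ± 27.5). Lrrc8d was the lowest by mean in MPX, at 8.27 ± 1.01 CPM per kb. In CPX, Oxtr was again the lowest, at 2.84 ± 2.13 CPM per kb, below Lrrc8d at 5.52 ± 0.96, with Degs1 the highest at 58.6 ± 7.49.

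The genes lie on 7 different chromosomes and all are annotated as protein coding, with the same positions in the mm10 table and in GENCODE M21. Oxtr lies on chromosome 6 (112473683 to 112489943, minus strand), Lrrc8d on chromosome 5 (105699969 to 105832436, plus), Alcam on chromosome 16 (52248996 to 52454074, minus) and Lhfpl2 on chromosome 13 (94057796 to 94195409, plus). Olfm1 lies on chromosome 2 (28192992 to 28230736, plus), Fmr1 on chromosome X (68678541 to 68717963, plus) and Degs1 on chromosome 1 (182275772 to 182282804, minus). Lrrc8d overlaps an antisense gene, Lrrc8dos, and a processed pseudogene on the other strand, and Lhfpl2 overlaps a long noncoding RNA gene on the other strand. Fmr1 overlaps 2 small RNA genes. Without a stated strand setting their reads cannot be told apart.

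RefSeq promoter windows (GRCm38.p6, which is mm10, 250 bases before to 50 after the annotated start) were found for all 7 genes. Their G+C content ran from 63.7% for Oxtr to 79.3% for Lhfpl2, beside a median of 64.0% over the listed genes with a window. Where a gene had several windows, the highest G+C content among them was taken, also for that median. The E-box CACGTG, which reads the same on both strands and is known as a binding sequence of basic helix-loop-helix factors, stood in the windows of Oxtr, Fmr1 and Degs1, 3 of 7, beside 12.1% of 3115 listed genes and 8.09% of 27025 genes in the table. This motif was picked out after the windows had been read, and a match is a string of letters, not a shown binding site. The 3 stretches are shown because they hold the one searched motif, other than the GC box and CCAAT, that stood in any of the windows, with the E-box in capitals and each read 5′ to 3′ on the strand of its gene.
Oxtr, chr6:112489851-112489880, minus strand: cgggccccgcccCACGTGccacactttaaa
Fmr1, chrX:68678518-68678547, plus strand: ggctgcgcgggtCACGTGacatcgtttgac
Degs1, chr1:182282221-182282250, minus strand: gggagcctcaatCACGTGgtccagtcagct
The E-box begins 43 bases before the RefSeq start of both Oxtr and Degs1, and 11 bases before that of Fmr1 (52 bases before a further annotated start of Fmr1). The annotations differ in where the genes begin: the Oxtr and Degs1 stretches lie before the RefSeq start but inside the gene as the mm10 table and GENCODE M21 give it. The GC box GGGCGG, on either strand, was in 6 of the 7 windows (all but Degs1) and in 74.7% of those of listed genes. CCAAT, on either strand, was in 2 of 7 (Alcam and Lrrc8d) and in 41.2% of listed genes. TATAAA (either strand) was in 0 of 7 windows and in 9.25% of listed genes, and the cAMP response element TGACGTCA in 0 of 7 and in 3.53%.

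The CPX libraries, which the stated condition did not use, were compared with MPX next. The 7 genes were chosen with earlier results of these data known. Whether CPX values played a part in taking them from the 753 was not tested. All 7 genes were higher in MPX by their fitted difference, from 0.58 for Lrrc8d to 4.01 for Oxtr on the log2 scale, with a median of 1.47 against -0.11 over all 3958 genes. The MPX libraries had been used to choose the genes, so that direction is not independent of the choice: of the 753 genes chosen by the same condition, 78.8% had a positive difference. In 4 genes (Oxtr, Lhfpl2, Lrrc8d and Degs1) every MPX library lay above every CPX library, as in 8.46% of all listed genes (all MPX below all CPX in 7.71%) and in 27.4% of the 753. In these 4 genes MPX thus lay above all 6 other libraries, as in 5.2% of listed genes. In Fmr1, Olfm1 and Alcam the groups overlapped because CPX 8 lay above MPX 2, and without either of those libraries the count was 7. Leaving out a library can only keep or raise such a count: over all listed genes the share was 14.6% without MPX 2 and 17.5% without CPX 8, and over the 753 it was 41.4% without MPX 2 and 39.7% without CPX 8.

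By edgeR's quasi-likelihood test over all 9 libraries, 0 of the 7 genes passed an adjusted p of 0.05 in MPX minus CPX, as did 0 of 3958 genes (0.0%). For Lhfpl2 the log2 difference was 2.04 (SE 0.50, edgeR adjusted p = 0.362), and the edgeR adjusted p was 0.362 for the other 6 genes as well. At an unadjusted p under 0.05 there were 7 of 7, beside 13.2% of all genes in either direction, 4.98% of all genes on the side higher in MPX, and 16.3% of the 753. Without MPX 5 there were 4 of 7 (Oxtr, Lhfpl2, Olfm1 and Alcam), beside 3.99% of all genes. DESeq2 called 6 of 7, all but Degs1 (DESeq2 adjusted p = 0.0532), where it called 1.74% of genes as higher and 3.34% as lower in MPX, and limma voom called 0. With CPX 8 left out edgeR called Lhfpl2 and Alcam (edgeR adjusted p = 0.0486 each), where it called 1.74% of all genes as higher and 2.5% as lower in MPX. The MPX values behind all these counts had served in the choice. The 7 genes also ranked 2 to 87 of the 753 by lowest MPX over highest EA value, so the 753 are no even comparison. These counts are a description and no independent support.

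None of the 7 genes passed a test between EA and CPX. The fitted EA minus CPX differences were negative for all 7 genes, between -0.93 for Fmr1 and -0.03 for Lhfpl2 on the log2 scale, with a median of -0.53 against -0.09 over all genes. These sizes depended on single libraries: Oxtr was at -2.19 without EA 7 and at -0.26 without CPX 8, and Fmr1 at -0.38 without CPX 8. Here the EA libraries had been used in the choice, and 70.9% of the 753 genes also had a negative difference. For Lhfpl2 the sign turned under upper-quartile scaling (0.070), with column sums (0.20), with limma voom (0.21), and without CPX 8 (0.44), EA 5 (0.046) or EA 8 (0.045). The groups overlapped in 6 genes. In Alcam every EA library lay below every CPX library, as in 5.08% of listed genes and 8.23% of the 753 (all EA above all CPX in 2.1%), but with column sums or upper-quartile scaling Alcam overlapped too. By edgeR 0 of 7 passed (edgeR adjusted p = 0.997 to 0.999), and 0 had an unadjusted p under 0.05, beside 2.96% of all genes. DESeq2 called 0 of 7, beside 0.0505% of all genes as higher and 0.0758% as lower in EA, and limma voom called 0. A p above the threshold does not show that EA and CPX were alike: the SE of the Oxtr difference (-0.79) was 1.18.

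**Figure D2:**
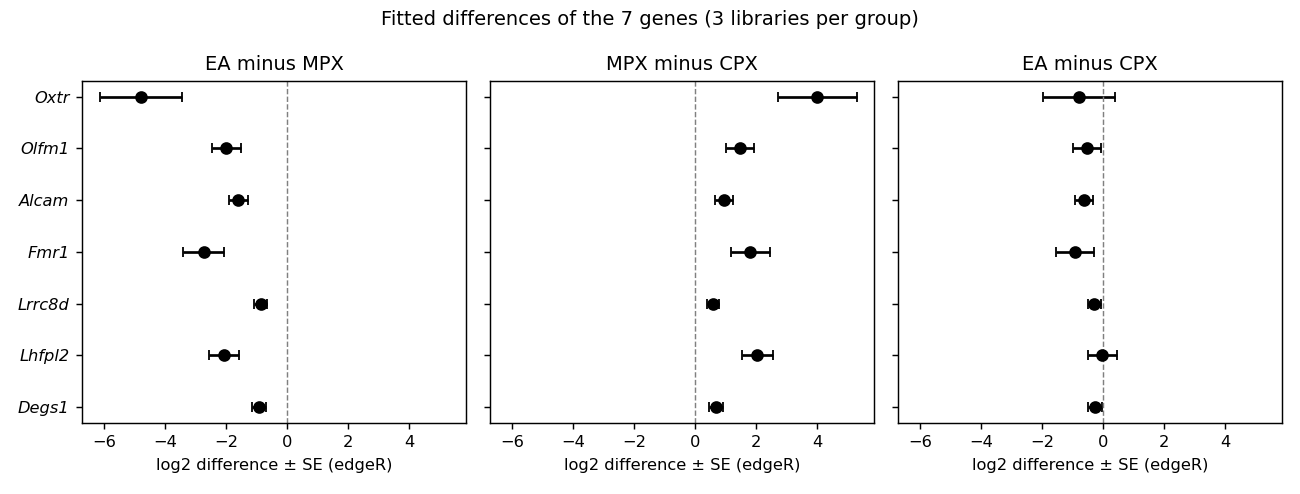
Fitted log2 differences with their SE (horizontal axis) of the 7 genes in EA minus MPX, MPX minus CPX and EA minus CPX, 3 libraries per group. EA minus MPX is negative throughout, which the choice of genes fixed, and EA minus CPX lies between -0.93 and -0.03.

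Within the groups the 7 genes ranked the libraries much alike, as did many of the 753 genes chosen by the same condition. In all 7 the order within MPX was MPX 5, then MPX 7, then MPX 2, an order found in 41.6% of the 753 genes and 23.1% of all listed genes. EA 8 was the lowest EA library in 6 of 7 (74.0% of the 753 and 38.1% of all), Lhfpl2 being the exception with 78.61 CPM in EA 5 and 78.63 CPM in EA 8. CPX 8 was the highest CPX library in 6 of 7 (34.8% of the 753 and 22.4% of all), with Degs1 the exception. CPX 6 was the lowest CPX library in 5 of 7 (77.4% of the 753 and 41.5% of all), with Olfm1 and Alcam the exceptions. Among the MPX libraries the summed macrophage markers were highest in MPX 2 (3780 CPM) and lowest in MPX 5 (1253 CPM), opposite to the 7 genes. The fibroblast and progenitor markers were also highest in MPX 2 (12960 CPM) and lowest in MPX 5 (4851 CPM). The summed adipocyte markers ran in the order of the 7 genes, at 47920, 45120 and 43980 CPM in MPX 5, 7 and 2. Among the single adipocyte markers only Lpl had that order, at 15210, 12110 and 7844 CPM, so the order of the sum came from Lpl. The part of cell types in these orders was not tested. Divided by the summed adipocyte markers of the same library, all MPX values lay above all CPX values in 1 of 7 genes, beside 1.34% of all listed genes and 4.91% of the 753. Divided by the summed endothelial markers they did so in 2 of 7, beside 1.36% of all listed genes and 4.38% of the 753. All MPX values lay above all EA values, the condition of the choice, in 6 of 7 genes per adipocyte markers (Degs1 overlapped). That was so in 3.54% of listed genes and 18.6% of the 753. Per endothelial markers it was so in 7 of 7, beside 2.7% of listed genes and 14.2% of the 753. The same EA and MPX values had chosen the genes, so these last counts are a description only.

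Likeness of profiles was measured as the mean absolute difference of log2 CPM over the 9 libraries, after each gene was centred on its own mean. Lrrc8d and Degs1 were the most alike of the 7 (0.16), followed by Olfm1 and Alcam (0.29), and Oxtr was the least like the others (1.16 from Fmr1 to 1.73 from Degs1), since its range was far wider.

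Among the other listed genes, the nearest to Oxtr were Mest (0.69), an imprinted gene known in mice to track the expansion of fat tissue, and Lep (0.83), which encodes leptin; the median distance from Oxtr over listed genes was 2.02. Mest had a mean of 54.0 ± 81.3 CPM in EA, 713 ± 603 CPM in the MPX libraries and 35.9 ± 45.5 CPM in CPX. Nearest to Fmr1 were Tuba1a (0.21), an alpha tubulin, and Lpgat1 (0.41), a lysophospholipid acyltransferase, and Lpgat1 was also the nearest to Lhfpl2 (0.17), with Slc5a3, a myo-inositol transporter, next (0.28). Tuba1a had a mean of 186 ± 58.6 CPM in EA, 1041 ± 565 CPM in the MPX libraries and 286 ± 197 CPM in CPX, a course close to that of Fmr1. Itga6, an integrin subunit, was near both Olfm1 (0.30) and Alcam (0.21); the proteoglycan gene Gpc1 (0.30) followed for Olfm1, and Hfe (0.20), which takes part in iron regulation, was the nearest to Alcam. Lrrc8d was nearest to Pea15a (0.12) and Klhl5 (0.12), and Degs1 to Dap (0.11) and Klhl5 (0.15). All of these genes also had MPX values above EA values without overlap, as did 19.0% of listed genes. Their likeness to genes chosen for that condition made this likely beforehand. With the greatest in place of the mean difference 8 of the 14 pairs stayed.

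**Figure D3:**
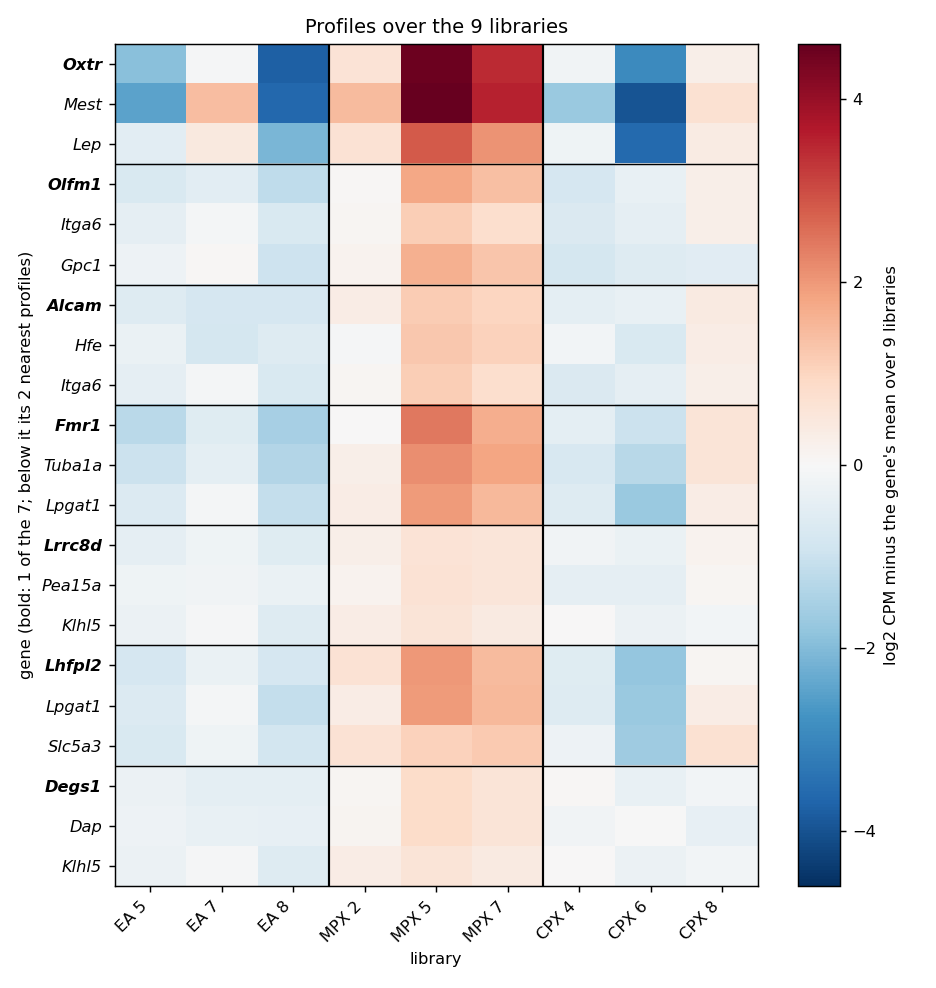
Log2 CPM of each gene minus its mean over the 9 libraries (colour) in each library (columns); bold rows are the 7 genes and the rows below each are its nearest profiles. In each of the 7 genes MPX 5 has the highest value and MPX 7 the next, and EA 8 and CPX 6 have the lowest values of Oxtr.

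The other genes of the families and pathways around the 7 were listed by family or pathway and not by the condition above, so their EA minus MPX difference was tested. Of 61 such genes listed, 33 had positive and 28 negative differences, with a median of 0.02 on the log2 scale, close to the 0.01 of all genes. By edgeR 0 of 61 passed, 5 had an unadjusted p under 0.05 (5.1% of all listed genes did), and DESeq2 and limma voom called 0.

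Around Fmr1 stand its paralogs, which also bind RNA. Fxr1 had a mean of 95.7 ± 15.9 CPM in the EA libraries, against 91.3 ± 4.78 CPM in MPX, and Fxr2 98.3 ± 9.77 CPM in the EA libraries, against 120 ± 10.7 CPM in MPX. Of 12 listed partners and paralogs, 11 had positive differences (median 0.15 on the log2 scale), the widest being Cyfip2, a partner of FMRP, at 89.4 ± 44.9 CPM in the EA libraries, against 8.27 ± 2.603 CPM in MPX (log2 difference 3.43, edgeR adjusted p = 0.775). Cyfip2 was at 411 CPM in CPX 6 against 2.08 CPM in CPX 4.

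Around Oxtr, 8 of 14 Gq signalling genes had positive and 6 negative differences (median 0.10). Gnaq, the G protein that carries the receptor's signal, had a mean of 122 ± 20.2 CPM in the EA libraries, against 151 ± 3.84 CPM in MPX. Lnpep, the aminopeptidase that degrades oxytocin, had a mean of 335 ± 30.1 CPM in the EA libraries, against 317 ± 13.4 CPM in MPX. The largest differences among them, Itpr3, a calcium release channel (1.54), and Grk2, a receptor kinase (1.05), were positive and did not pass (edgeR adjusted p = 0.775 each). Both varied widely within CPX: Itpr3 was at 230 CPM in CPX 6 against 14.9 CPM in CPX 4, and Grk2 at 581 against 120 CPM.

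Around Degs1, 8 of 16 sphingolipid genes had positive and 8 negative differences (median -0.05). The ceramide synthase gene Cers4 had a mean of 60.5 ± 8.44 CPM in the EA libraries, against 95.4 ± 38.0 CPM in MPX, and the sphingomyelinase gene Smpd1 87.6 ± 18.1 CPM in the EA libraries, against 142 ± 26.3 CPM in MPX. Sgpl1, which degrades sphingosine phosphate, had a mean of 265 ± 49.2 CPM in the EA libraries, against 179.6 ± 57.3 CPM in MPX. None of these passed (edgeR adjusted p = 0.775 each).

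Of the osmotic response genes around Lrrc8d, 2 of 6 differences were positive and 4 negative (median -0.03). Slc5a3 had a mean of 92.3 ± 23.2 CPM in the EA libraries, against 272 ± 48.9 CPM in MPX, a difference of -1.56 (SE 0.52) whose groups did not overlap (edgeR adjusted p = 0.775). The other channel subunits, among them Lrrc8a, were not among the listed genes and were not analysed here.

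Of the 8 adhesion molecules around Alcam, 4 differences were positive and 4 negative (median -0.13). Mcam, an endothelial and mural adhesion molecule, had a mean of 271 ± 113 CPM in the EA libraries, against 653 ± 251 CPM in MPX, while Vcam1, which binds leukocytes, had a mean of 190.2 ± 50.3 CPM in the EA libraries, against 40.4 ± 10.2 CPM in MPX (log2 difference 2.24, edgeR adjusted p = 0.775). Vcam1 was at 330 CPM in CPX 6 against 24.3 CPM in CPX 4. Around Olfm1, both listed genes of the Nogo receptor system had negative differences, Rtn4rl1 (-1.13) and Rtn4 (-0.54). Around Lhfpl2, all 3 listed tetraspan genes had negative differences: Emp1 had a mean of 223 ± 90.1 CPM in the EA libraries, against 759 ± 216 CPM in MPX, Cldn5, an endothelial tight junction gene, 116 ± 47.1 CPM in the EA libraries, against 266 ± 95.4 CPM in MPX, and Pmp22 196 ± 26.7 CPM in the EA libraries, against 256 ± 45.8 CPM in MPX. None passed the test, with edgeR adjusted p = 0.775 for Rtn4rl1, Rtn4, Emp1 and Cldn5, and 0.820 for Pmp22.

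**Figure D4:**
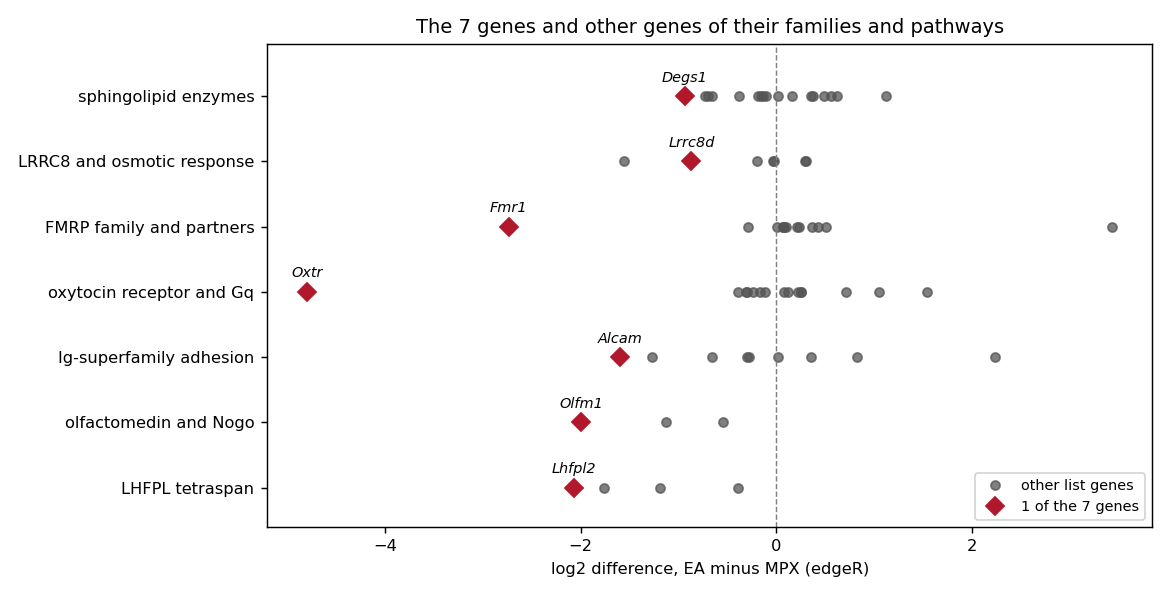
Fitted log2 difference of EA minus MPX (horizontal axis) for the 7 genes (red diamonds) and the other listed genes of their families and pathways (grey points, 1 row per list). The diamonds were chosen for lower values in EA; the grey points, 33 positive and 28 negative, were not.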

How the data were processed

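The submitters' processing notes name HISAT2 2.0.5 and mm10. How reads were counted, and whether by strand, is not given in the sources used here. The authors deposited raw counts, per the file headers, for 3958 genes with totals of at least 8471 counts; the table's text ends inside its last row. Columns were matched to libraries by title, and 11 names were restored from gene IDs.

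Counts were fitted with edgeR 4.0.16 in R 4.3.3 (TMM, filterByExpr, which removed 0 genes, robust quasi-likelihood, 1 mean per group, 9 libraries), with Benjamini-Hochberg adjustment over all listed genes. Log2 differences are those of the fit; their SE is the difference over the square root of F. The common dispersion was 0.161. Alternatives used DESeq2 1.42.0, limma 3.58.1, other scalings and filters, and libraries left out. The fit was checked on simulated data in which 200 of 3958 genes were changed in EA. In EA minus MPX it called 11% of 2-fold, 63.6% of 4-fold and 90.2% of 8-fold changes, with 3 false calls. A gene that did not pass may therefore still differ, above all at 2-fold.

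The 7 genes, the pathway lists and the rule for named genes (the 7, their 2 nearest profiles, and up to 4 genes per list with the smallest EA minus MPX p, some of which are given; Fxr1, Gnaq and Lnpep were added after their values were seen) were chosen with earlier results of these data known. For 1 gene alone, 3 against 3 libraries allow no exact two-sided p under 0.1. No batch is given in the labels. Replicates differed beyond sampling noise (chi-square per degree of freedom at least 71.5).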

Additional observations from a re-analysis of the deposited data

How the results depend on the processing

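The MPX minus CPX differences of the 7 genes kept their sign in the 133 values recomputed; the sign of EA minus MPX was fixed by the choice and is no sign of stability. In EA minus CPX the sign turned in 6 of 133 values, all of Lhfpl2: 0.070 with upper-quartile scaling, 0.20 with column sums, 0.21 with limma voom, 0.44 without CPX 8, 0.046 without EA 5 and 0.045 without EA 8 (-0.40 to 0.44 with 1 library left out). The cause was not tested.

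The count of genes called in EA minus MPX was 0 by edgeR, 49 by DESeq2 (all 7 genes among them), 84 with only EA and MPX in the fit (Lhfpl2, Alcam and Lrrc8d among them), 6 with the title number as a replicate block, and 0 to 23 with 1 library left out, the 23 without CPX 6. In MPX minus CPX it was 0 by edgeR, 201 by DESeq2 and 0 to 168 with 1 library left out, the 168 without CPX 8. In EA minus CPX it was 0 by edgeR, 5 by DESeq2 and 0 to 12 with 1 library left out, the 12 without CPX 6. The filters removed 0 genes and say nothing about stability. The labels do not say what the title numbers mean. Deviations of same-numbered libraries from their group means had correlations of -0.51 to 0.13, over too few pairs to show or exclude pairing. The block sets aside MPX 2, CPX 4 and CPX 6, whose numbers no other library shares. With it EA minus MPX rests on EA 5, EA 7, MPX 5 and MPX 7. EA minus CPX rests on EA 8 against CPX 8 alone, and MPX minus CPX has CPX 8 as its only CPX library. With the block the MPX minus CPX difference of Oxtr was 0.74 in place of 4.01. Its EA minus CPX difference was -4.16 in place of -0.79. With CPX 8 as the only CPX library, no p-value is given for these. Without MPX 5, and without the block, the MPX minus CPX difference of Oxtr was 3.10.

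MPX above EA in 7 genes with a library left out follows from the choice (6 genes per summed adipocyte markers). All MPX values lay above all CPX values in 4 to 7 genes with 1 library left out (7 without MPX 2 or CPX 8), in 1 gene per summed adipocyte markers and in 2 per summed endothelial markers. EA and CPX did not overlap in 1 gene, in 0 with upper-quartile scaling or column sums, and in 1 to 4 with 1 library left out, the 4 without CPX 6, where 35.4% of all genes did not overlap. Leaving out a library can only keep or raise these counts. The left-out counts and the divisions by markers were added after the data were seen. At 17 counts in EA 8 and 30 in CPX 6, counting error adds to the spread of Oxtr.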
